A study of Mus musculus with 9 samples.

Results

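Complement is a cascade of plasma and tissue proteins that tags microbes and damaged cells and draws leukocytes to them. In the classical pathway C1q acts together with the proteases C1r and C1s. C1r activates C1s, which cleaves C4 and C2. The alternative pathway amplifies C3 cleavage through factor B, and every route meets at C3, whose fragments coat surfaces or act on receptors such as the C3a receptor. C1 inhibitor restrains the C1 proteases, and CD55 dismantles the C3-cleaving enzymes on host cells. Most circulating complement comes from the liver, but keratinocytes, fibroblasts and macrophages of the skin also make components, so their transcripts can be followed in skin RNA.

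The genes examined here are 9 complement components and regulators, chosen by name and found in a table of 17943 genes by their NCBI gene identifiers. They are *C3*, *Cfb* (factor B), *C2*, *C4b*, *C1s1*, *C1ra*, *Serping1* (C1 inhibitor), *Cd55* and *C3ar1* (C3a receptor). All 9 had enough counts to be tested, and so did 33 of the 41 other complement genes that had a row in the table.

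Bulk RNA-Seq libraries were made of the skin of 5 control and 4 *Supt6*-KO animals, taken when 10 days had passed since the last injection. The *Supt6*-KO mice carried K14-CreERT, a tamoxifen-inducible recombinase under the promoter of a basal keratinocyte keratin, with both *Supt6* alleles floxed, and received tamoxifen. The controls are labelled wild-type mice; by the study's methods they were *Supt6* fl/fl animals injected with corn oil, so the transgene and the drug both differ between the groups. The recombinase acts in K14-expressing epithelium, whereas whole skin also holds dermal and immune cells with intact *Supt6*. Ages are not stated, and the injections were given during the first telogen. The sample labels name ear and the methods dorsal skin. Cartilage markers were present in every control, with 273 to 658 summed CPM over 4 genes, and were at 42 to 50 summed CPM in the *Supt6*-KO mice. Estimated counts summed to between 29627341 and 30967107 per mouse. Values below are CPM, the count of a gene relative to the size of its library after scaling by the TMM method, and adjusted p-values come from the quasi-likelihood test of edgeR, adjusted by Benjamini-Hochberg across the 16426 genes tested.

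*Supt6* itself checked the labels. Its counts were 2786, 2068, 2297, 3370 and 3798 in the controls and 684, 503, 478 and 791 in the *Supt6*-KO mice, which is 33.7% of the control CPM (log2 fold change -1.57, standard error (SE) 0.18, adjusted p = 1.3e-05). Every *Supt6*-KO mouse lay below every control. The log2 fold change was -2.26 with library totals and -0.80 with the length correction, past the threshold in both.

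Of the 9 complement genes, 6 fell and 1 rose in *Supt6*-KO skin at an adjusted p under 0.05, where 36.8% of all genes tested fell and 34.1% rose. *C4b*, *C2*, *Cd55*, *C1ra*, *C3* and *Serping1* fell, *C3ar1* rose, and *Cfb* and *C1s1* did not pass the threshold. The 2 groups did not overlap for 5 of the 9 genes, all of them lower, where 31.8% of all genes tested were lower and 28.9% higher without overlap. The median log2 fold change was -0.93 over the 9 genes and -0.07 over all genes. In whole skin, fewer cells of a type and less RNA per cell cannot be told apart. Scaling to library totals alone moved the median of all genes to -0.76 and that of the 9 genes to -1.65. On that scale 7 of the 9 fell and 0 rose, where 54.6% of all genes fell and 16.9% rose.

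The promoters of members that moved in opposite directions are shown before their values. RefSeq start sites of build GRCm38.p6 gave 6 windows for 5 of the 9 genes (*C3*, *C1ra*, *C1s1*, *Cd55* and *C3ar1*), and the 250 bases before each start were searched on both strands. The motifs were the κB element by its name, the interferon-gamma element TTCNNNGAA, the interferon-stimulated element (GAAA, any pair of bases, GAAA), the C/EBP letters TTGCNNAA and the TATA box TATAAA. Over all 32851 promoter windows these were found in 3.9%, 7.02%, 2.98%, 9.56% and 12.4%, in that order. The sequences below run 5′ to 3′ on the gene's strand, with matched letters in capitals; the first 2 genes fell and the third rose.
*C3*, chr17:57228137-57228386, minus strand: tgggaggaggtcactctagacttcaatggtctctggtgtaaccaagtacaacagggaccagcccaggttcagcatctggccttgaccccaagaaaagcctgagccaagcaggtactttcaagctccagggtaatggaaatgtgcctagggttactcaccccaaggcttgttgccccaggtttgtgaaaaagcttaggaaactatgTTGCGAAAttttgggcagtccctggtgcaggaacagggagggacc
*Cd55*, chr1:130462745-130462994, minus strand: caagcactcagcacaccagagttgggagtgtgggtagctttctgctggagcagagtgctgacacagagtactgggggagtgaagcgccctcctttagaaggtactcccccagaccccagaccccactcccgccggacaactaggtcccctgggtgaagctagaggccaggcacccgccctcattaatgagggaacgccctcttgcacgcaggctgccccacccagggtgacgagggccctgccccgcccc
*C3ar1*, chr6:122856158-122856407, minus strand: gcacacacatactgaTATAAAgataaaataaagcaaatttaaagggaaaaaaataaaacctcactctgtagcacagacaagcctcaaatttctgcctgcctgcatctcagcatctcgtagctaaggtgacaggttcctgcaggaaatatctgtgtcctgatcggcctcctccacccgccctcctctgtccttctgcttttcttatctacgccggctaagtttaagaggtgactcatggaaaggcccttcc
The *C3* window held the C/EBP letters at positions -45 to -38 from the start, *C3ar1* held the TATA letters at -235 to -230, and *Cd55* held none of the 5 motifs. One of the 2 windows of *C1s1* held the C/EBP letters and the *C1ra* window none. A match is a description of the letters only.

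*C3*, the component on which all pathways converge, lies on chromosome 17 from 57203970 to 57228136 (GRCm38, minus strand). It stood at 66.6, 46.5, 42.6, 70.3 and 98.3 CPM in controls 1 to 5 and at 29.9, 34.7, 40.4 and 31.1 CPM in *Supt6*-KO mice 1 to 4. The highest *Supt6*-KO mouse was just under the lowest control. Mean levels were 64.9 ± 22.2 CPM (SD, n = 5) and 34.0 ± 4.69 CPM (SD, n = 4). The log2 fold change was -0.93 (SE 0.23, adjusted p = 0.0033 from edgeR). An exact permutation test (two-sided) gave p = 0.0159, the lowest that 5 against 4 mice can give. *C3* was the only one of the 7 called genes to lose its call when a trend of fold change with transcript length was removed, with a log2 fold change of -0.37 (adjusted p = 0.12 from edgeR). Its longest annotated transcript has 5136 bases.

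*Cfb* supplies the protease of the alternative C3 convertase. Controls had 14.8, 15.6, 11.0, 18.0 and 23.6 CPM and *Supt6*-KO mice 16.4, 19.0, 27.9 and 16.3 CPM. The groups overlapped in most of their range, with 1 *Supt6*-KO mouse above every control and none below. The log2 fold change of 0.26 did not pass the threshold (SE 0.23, adjusted p = 0.32 from edgeR), and its sign turned to -0.46 with library totals, again without passing (adjusted p = 0.099).

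*C2* and *C4b* make up the classical C3 convertase, and both fell. *C2* had 9.39, 8.51, 5.43, 11.7 and 14.3 CPM in controls 1 to 5, and 3.64, 3.45, 5.03 and 2.87 CPM in the *Supt6*-KO mice. Its level in *Supt6*-KO skin was 38.0% of the control mean (log2 fold change -1.40, SE 0.28, adjusted p = 0.00083). *C4b* had 82.6, 57.0, 66.5, 103 and 159.7 CPM in the controls against 32, 35.9, 37.9 and 22.6 CPM, or 34.3% (log2 fold change -1.55, SE 0.29, adjusted p = 0.00053). Neither gene overlapped between the groups, and control 5 was the highest mouse for both. *C4b* spans 34728380 to 34743882 on chromosome 17, and 65209 bases lie between it and its close copy *C4a*. Reads can be shared between the copies, but *C4a* held only 7 to 16 counts per mouse where *C4b* held 630 to 6273, and summing both copies kept the call. With the length trend removed, *C4b* had a log2 fold change of -0.92 (adjusted p = 0.0071 from edgeR), in a transcript of 5379 bases.

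The serine proteases of the C1 complex are encoded side by side on chromosome 6. *C1ra*, which activates C1s, had 27.7, 23.4, 18.6, 27.2 and 41.8 CPM in the controls and 14.0, 11.5, 15.2 and 13.2 CPM in the *Supt6*-KO mice. All 4 *Supt6*-KO mice were below the controls, and their SD of 1.56 CPM (n = 4) was well below that of the controls, 8.65 CPM (n = 5). The log2 fold change was -1.04 (SE 0.21, adjusted p = 0.00099 from edgeR). *C1s1*, which cleaves C4 and C2, had 39.1, 32.1, 29.2, 43.4 and 57.4 CPM against 38.1, 44.0, 53.1 and 32.7 CPM. These groups covered nearly the same range, and the log2 fold change was 0.06 (SE 0.20, adjusted p = 0.81 from edgeR). Library totals gave *C1s1* a log2 fold change of -0.67 (adjusted p = 0.014). The copies *C1rb* and *C1s2* had at most 3 and 11 counts in any mouse.

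*Serping1*, the C1 inhibitor gene, had 64.4, 63.7, 43.6, 64.8 and 99.1 CPM in the controls and 35.2, 39.4, 48.6 and 39.4 CPM in the *Supt6*-KO mice. In 3 of 4 *Supt6*-KO mice it was below every control, and *Supt6*-KO mouse 3 was above control 3. The log2 fold change was -0.72 (SE 0.20, adjusted p = 0.0075 from edgeR), with p = 0.0317 in the two-sided exact permutation test. *Cd55* encodes a regulator, tethered to the membrane by a lipid anchor, that breaks up convertases on the cell's own surface. It stood at 55.1, 55.5, 59.9, 47.1 and 39.6 CPM in the controls and 21.9, 20.4, 20.3 and 28.8 CPM in the *Supt6*-KO mice. Here control 5 was the lowest control and *Supt6*-KO mouse 4 the highest of its group, the reverse of their places for *C4b*. Its log2 fold change of -1.17 had the smallest adjusted p of the 9 genes (SE 0.16, adjusted p = 4.6e-05 from edgeR). *Cd55b* had at most 1 count in any mouse.

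*C3ar1*, the receptor for the C3a fragment, was the only gene of the 9 that rose. Its CPM were 1.63, 1.53, 1.16, 1.70 and 3.67 in the controls and 5.98, 3.84, 3.57 and 4.27 in the *Supt6*-KO mice. Control 5 reached into the *Supt6*-KO range, and the other controls lay below it. The level was low, with 42 to 144 counts per mouse. The log2 fold change was 1.18 (SE 0.32, adjusted p = 0.0059 from edgeR), with p = 0.0317 in the two-sided exact permutation test. With library totals it was 0.48 and did not pass (adjusted p = 0.24 from edgeR).

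**Figure D1:**
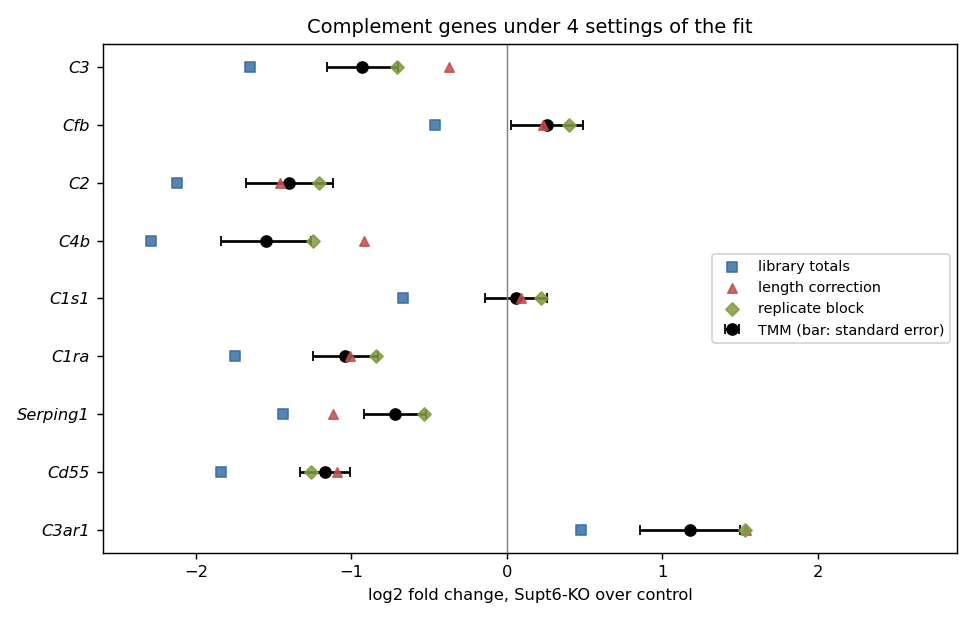
Log2 fold change of *Supt6*-KO over control (horizontal axis) for the 9 genes with TMM (black, bar: standard error), library totals (blue squares), a length correction (red triangles) and the replicate number as a block (green diamonds). *C3*, *C2*, *C4b*, *C1ra*, *Serping1* and *Cd55* lie below 0 at every setting drawn, and *Cfb* and *C1s1* change sign with library totals.

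Ratios of genes within a mouse do not depend on how the libraries are scaled against each other. All 36 pairs of the 9 genes were compared on log2 ratios of counts (0.5 added to each) by a two-sided exact permutation test. With adjustment over the 36 pairs, which share the 9 genes, 24 pairs passed. Pairs of genes at large were not compared, so this count has no background share beside it. Of all single genes tested, 71.0% were called with TMM in either direction. *Cfb* and *C2* are paralogs on the same strand of chromosome 17, with 85 bases between the annotated end of *C2* and the start of *Cfb*. There were 1.58, 1.84, 2.02, 1.53 and 1.66 counts of *Cfb* per count of *C2* in the controls and 4.51, 5.51, 5.55 and 5.67 in the *Supt6*-KO mice. The mean log2 ratio rose by 1.62, from 0.78 ± 0.16 (SD, n = 5) to 2.40 ± 0.16 (SD, n = 4), with exact permutation p = 0.0159 and 0.0286 after adjustment. *C1s1* and *C1ra* are transcribed toward each other, and 6901 bases separate their annotated ends. The count ratio of *C1s1* to *C1ra* was 1.41, 1.37, 1.57, 1.59 and 1.37 in the controls and 2.72, 3.83, 3.49 and 2.47 in the *Supt6*-KO mice. This pair differed by 1.07 on the log2 scale (exact permutation p = 0.0159, adjusted 0.0286). Both neighbour pairs thus moved apart in every *Supt6*-KO mouse.

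Of the pairs with *C3*, some passed and some did not. *C3* to *C1ra* had a mean log2 ratio of 1.21 ± 0.14 (SD, n = 5) in the controls and 1.33 ± 0.21 (SD, n = 4) in the *Supt6*-KO mice (exact permutation p = 0.317). *C2* to *C4b* was -3.22 ± 0.34 against -3.09 ± 0.21 (exact permutation p = 0.556 for n = 5 and 4). *C3* to *Serping1* was -0.07 ± 0.22 against -0.26 ± 0.06 (exact permutation p = 0.143 for n = 5 and 4). *C3* to *Cfb* fell by 1.15 on the log2 scale (exact permutation p = 0.0159, adjusted 0.0286). *C3* fell against *C1s1* by 0.95 (exact permutation p = 0.0159, adjusted 0.0286). *C3* rose by 0.47 relative to *C2* and by 0.60 relative to *C4b* (exact permutation p = 0.0159 and adjusted 0.0286 for each), so these genes fell by more than *C3* did in counts. A ratio of counts still carries the trend of fold change with transcript length, in which these genes differ. After the length correction the log2 fold changes were -0.37 for *C3*, -1.12 for *Serping1*, -1.01 for *C1ra*, -1.46 for *C2*, -0.92 for *C4b*, 0.23 for *Cfb* and 0.09 for *C1s1*, so that *C3* stood farther from *Serping1* and *C1ra*, and *C2* farther from *C4b*, than in the counts, and *C3* nearer to *Cfb*. The ratios were not tested on that scale.

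**Figure D2:**
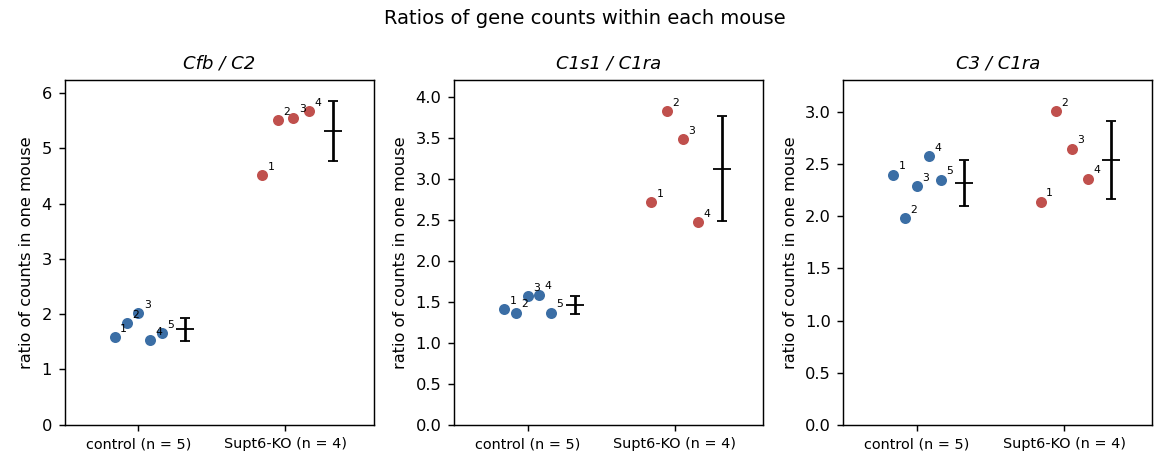
Ratio of the counts of 2 genes in the same mouse (vertical axes, from 0) for *Cfb* over *C2*, *C1s1* over *C1ra* and *C3* over *C1ra*. Points are mice with their replicate number and the bars are the mean and SD. In the first 2 panels every *Supt6*-KO mouse is above every control, and in the third the groups overlap.

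Levels can be compared between genes only per length, with the TPM that the authors deposited for the 5 controls and *Supt6*-KO mouse 4. In the controls *Serping1* was the most abundant of the 9 at 73.0 ± 31.2 TPM (SD, n = 5). *Cd55* followed at 36.4 ± 2.64, *C4b* at 30.6 ± 17.5, *C1s1* at 25.3 ± 10.3, *C3* at 22.1 ± 10.5, *C1ra* at 18.6 ± 8.29, *Cfb* at 11.1 ± 4.53, *C2* at 6.95 ± 3.16 and *C3ar1* at 0.81 ± 0.532 TPM. The range of *Serping1* was above that of *Cd55*, and that of *C2* above that of *C3ar1*. All other neighbours in this order overlapped in range, although *C1s1* exceeded *C3*, *C3* exceeded *C1ra*, *C1ra* exceeded *Cfb* and *Cfb* exceeded *C2* in 5 of 5 controls. In *Supt6*-KO mouse 4, a single animal, *Serping1* stood at 20.96 TPM, *Cfb* at 5.35 TPM, *C3* at 5.13 TPM and *C4b* at 3.54 TPM. *C4b* was thus under *Cfb* in that mouse and above it in the mean of the controls.

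The other complement genes were taken from a list by role, and those described here had at least 1 CPM in either group unless counts are given. Of the 33 tested, 12 rose and 9 fell, beside 34.1% and 36.8% of all genes, with a median log2 fold change of 0.27. On library totals, 4 rose and 13 fell, beside 16.9% and 54.6% of all genes. The counts are thus not far from those of genes at large.

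The 3 chains of C1q, which are made mainly by macrophages and dendritic cells, all passed the threshold. *C1qb* averaged 21.6 ± 6.82 CPM (SD, n = 5) in the controls and 60.0 ± 8.89 CPM (SD, n = 4) after *Supt6* loss (log2 fold change 1.48, adjusted p = 0.00014 from edgeR). *C1qa* rose by 1.08 and *C1qc* by 0.78 on the log2 scale. The calls depended on the setting. With library totals only *C1qb* passed (log2 fold change 0.78), and with the length correction none did (0.65 for *C1qb*, 0.23 for *C1qa* and 0.04 for *C1qc*). *Fcna*, ficolin A of the lectin pathway, rose by 1.95 on the log2 scale (adjusted p = 0.00026 from edgeR) and by 1.26 with library totals, from 20 to 62 counts in the controls to 50 to 135 counts. *Colec11*, a collectin, had a log2 fold change of -0.95 (adjusted p = 0.045) that lost its call in 7 of 9 cases when 1 mouse was left out, the exceptions being control 3 and *Supt6*-KO mouse 2. *C1rl*, a relative of C1r, and the lectin pathway protease *Masp1* did not pass, with log2 fold changes of -0.52 and -0.14. Both passed as lower with library totals (-1.19 and -0.81), and *Masp1* turned to 0.43 and passed as higher with the length correction (adjusted p = 0.045 from edgeR).

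Among the other genes of the alternative pathway, *Cfp* (properdin, which stabilises the convertase) rose by 0.75 on the log2 scale (adjusted p = 0.001 from edgeR), with 8.12 ± 0.55 CPM (SD, n = 5) in the controls and 13.7 ± 2.70 CPM (SD, n = 4) in the *Supt6*-KO mice. It was at 0.06 with library totals and 0.31 with the length correction, neither past the threshold. *Cfd*, the factor D or adipsin gene that adipocytes express strongly, had 53.3 ± 11.7 CPM (SD, n = 5) and 48.7 ± 7.63 CPM (SD, n = 4) (log2 fold change -0.13, adjusted p = 0.53 from edgeR). With library totals it fell by 0.83, and with the length correction by 1.07. None of the terminal components reached 1 CPM in the mean of either group. Of the 6 tested, 1 rose, 2 fell and 3 did not pass. *Hc*, which encodes C5, rose from 2 to 9 counts per control to 19 to 26 counts. *C7* had 2 to 63 counts in the controls and 0 to 2 in the *Supt6*-KO mice, and *C8b* 1 to 3 against 0 in every *Supt6*-KO mouse, and these 2 fell.

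Regulators went in both directions. *Clu*, the clusterin gene, had the highest mean of the complement genes in the controls at 172 ± 31.7 TPM (SD, n = 5), although *Cfd* was above it in controls 2 and 3. It fell to 37.5% of the control CPM (log2 fold change -1.42, adjusted p = 4.8e-05). *Vtn* (vitronectin) fell by 2.07, *Susd4* by 1.87 and *Cd59a*, which blocks the membrane attack complex, by 0.56. These 4 genes and *Cd55* showed no overlap between the groups. *Cr1l*, the rodent inhibitor Crry, moved against *Cd55* and *Cd59a*. It had 57.7, 68.1, 65.2, 56.2 and 55.6 CPM in the controls and 114, 115, 117 and 94.5 CPM in the *Supt6*-KO mice. Its log2 fold change was 0.87 (SE 0.11, adjusted p = 3.9e-05 from edgeR) but 0.16 with library totals, which did not pass (adjusted p = 0.21). *Cpn1*, a subunit of the peptidase that trims C3a, had 0 to 6 counts in the controls and 25 to 47 counts in the *Supt6*-KO mice.

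Of the receptors besides *C3ar1*, *Itgam*, the CD11b chain of complement receptor 3, rose by 1.06 (adjusted p = 0.0022 from edgeR) and the second C5a receptor *C5ar2* by 1.33 (adjusted p = 0.0097) on the log2 scale. With library totals *Itgam* was at 0.36 and *C5ar2* at 0.65, neither past the threshold. *C5ar1* and *Itgb2* had log2 fold changes of 0.48 and 0.12 that did not pass, and *Itgax* fell by 0.85, which was -0.56 without a call after the length correction and lost its call without any of 3 mice (control 4 and *Supt6*-KO mice 2 and 4).

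**Figure D3:**
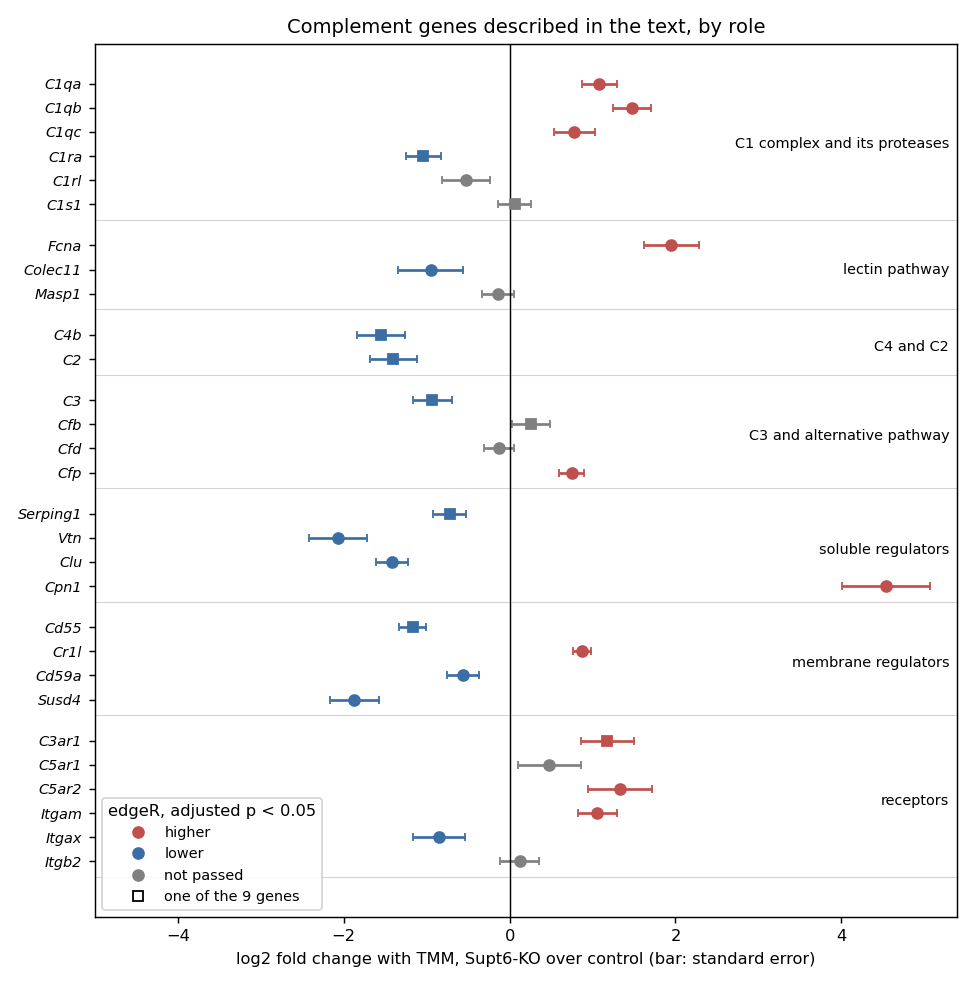
Log2 fold change with TMM of *Supt6*-KO over control (horizontal axis, bar: standard error) for the complement genes described in the text that had at least 1 CPM in either group, ordered by role. Red genes rose and blue genes fell at an adjusted p under 0.05 from edgeR, grey genes did not pass, and squares are the 9 genes described above. The C1q chains lie to the right and *C1ra*, *C4b*, *C2* and *C3* to the left; *C1qa*, *C1qc*, *Cfp*, *Cr1l*, *C3ar1*, *C5ar2* and *Itgam* lost their call with library totals.

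Cytokines and factors known to act on complement gene transcription were read beside these values. *Il1b* rose by 7.09, *Il6* by 4.68 and *Tnf* by 2.22 on the log2 scale, and *Ifng* had 0 counts in every control and 1 to 5 in the *Supt6*-KO mice. *Irf1* had a log2 fold change of 1.03 (0.29 with library totals, not passed). *Rela* fell by 1.36. *Nfkb1* fell by 0.62 and *Stat3* by 0.65, but both lost their call after the length correction, at -0.32 (adjusted p = 0.052 from edgeR) and 0.04. *Cebpb* and *Cebpd* did not pass, at 0.23 and -0.23. In all, 5 of these 11 genes rose and 3 fell. Their part in the complement values was not tested.

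Markers of other cell types also moved between the groups. The fibroblast list had 4 lower and 0 higher genes of 8, and its summed CPM was 4958, 4465, 3144, 6152 and 10866 in controls 1 to 5 and 2652, 3169, 4010.2 and 2125 in the *Supt6*-KO mice. *Col3a1*, the gene with the most CPM in the list (a share of the counts, not a level per length, here and in the lists below), did not pass (log2 fold change -0.31). On library totals 8 of the 8 were lower. With the length correction *Pdgfra* (-0.14) and *Dcn* (-0.30) lost their calls, *Dpt* (-0.61) passed as lower and *Fbn1* (1.07) as higher. Control 5 was the highest and control 3 the lowest for this list, as they were for 7 of the 9 complement genes. For *C4b* control 2 was the lowest, and for *Cd55* control 5. Endothelial markers were lower for 4 of 5 genes, with sums of 48.0 to 104 CPM in the controls and 30.6 to 41.1 CPM in the *Supt6*-KO mice, *Pecam1* having the most CPM. With the length correction *Kdr* (-0.47) and *Tek* (-0.30) lost their calls. Whether the number of dermal cells differed, or had a part in the fall of the complement genes, was not tested.

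The macrophage list, relevant to *C3ar1* and C1q, summed to 186 to 324 CPM in the controls and 241 to 282 CPM in the *Supt6*-KO mice. Of its 7 genes 4 were higher and 2 lower, and on library totals 2 were higher and 2 lower. *Fcgr1* rose by 3.17 and *Mrc1* by 1.89, while *Csf1r* fell by 1.83 on the log2 scale. Neutrophil markers summed to 4.33 to 9.41 CPM in the controls and 27.7 to 83.6 CPM in the *Supt6*-KO mice, with 5 of the 6 tested genes higher and the granule gene *Mpo* lower. On library totals 4 were higher and 1 lower. Counts were low for *Mpo* (4 to 26 in the controls, 0 to 1 in the *Supt6*-KO mice) and *Ly6g* (0 to 1 and 0 to 15). *Cxcr2* had the most CPM in every control and in *Supt6*-KO mice 1 and 4, and *Retnlg* in *Supt6*-KO mice 2 and 3. Hepatocyte markers summed to 0.72 to 1.11 CPM in the controls and 0.46 to 1.1 CPM in the *Supt6*-KO mice, with *Ttr* highest in both means. Of the 3 tested, *Apoa1* rose (0 to 1 counts against 1 to 11) and *Alb* fell (9 to 15 counts against 1 to 5). Among basal keratinocyte markers 4 of 5 fell. *Krt5* had the most CPM in every control and fell by 0.86 on the log2 scale, whereas *Krt14*, which had the most in every *Supt6*-KO mouse, did not pass. Of the suprabasal markers 3 of 5 rose and *Krt10*, with the most CPM, did not pass. The T cell list had 3 lower of 4, with *Cd3g* highest in both means. Adipocyte markers were lower for 4 of 5 genes while *Fabp4*, with the most CPM, did not pass. Mast cell markers had 1 higher and 1 lower of 5, and 0 higher and 3 lower on library totals. *Mcpt4* was highest in the mean of the controls and *Cma1* in that of the *Supt6*-KO mice. Cartilage markers were lower for 4 of 4 genes, with *Acan* highest in the mean of the controls and *Cnmd* in that of the *Supt6*-KO mice, and skeletal muscle markers, led by *Acta1*, for 5 of 5. The part of these cell types in the complement values was not tested.

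**Figure D4:**
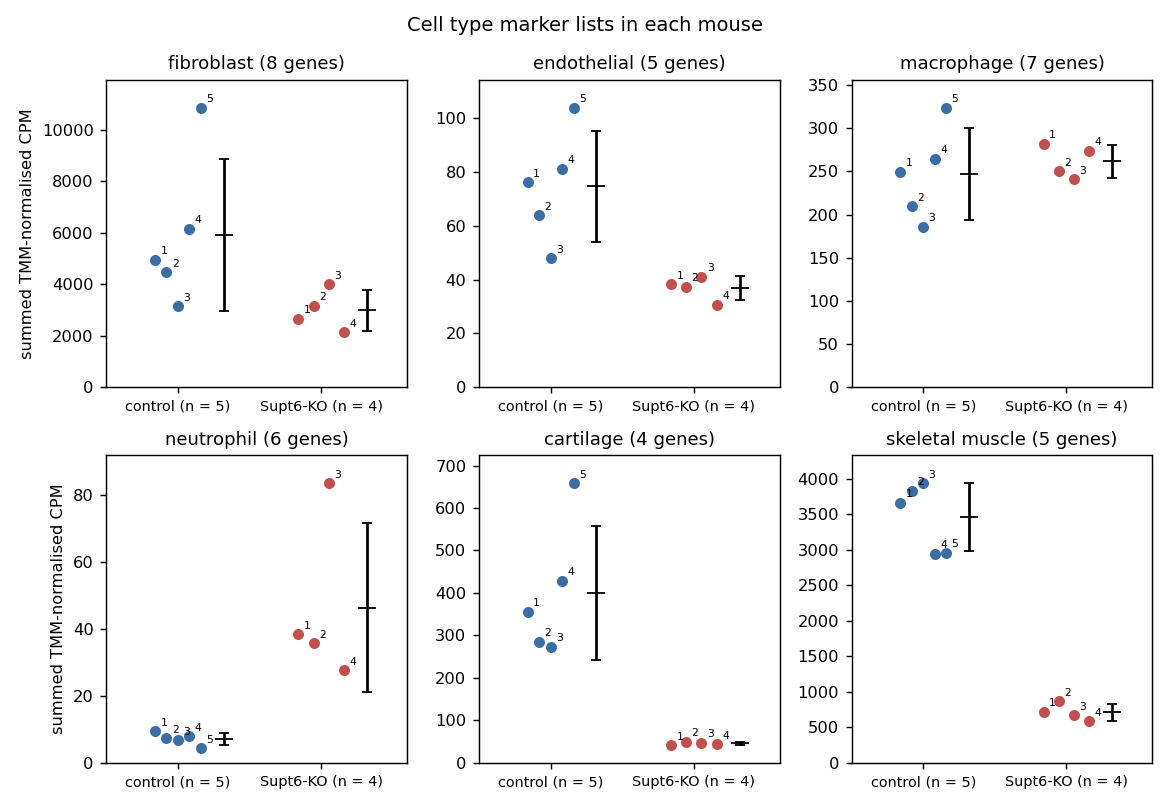
Summed TMM-normalised CPM of 6 marker lists (vertical axes, from 0) in each mouse, with the number of genes tested in each list. Points are mice with their replicate number and the bars are the mean and SD. Fibroblast and endothelial sums are highest in control 5, cartilage and skeletal muscle sums are far lower in the *Supt6*-KO mice, and macrophage sums overlap.

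The genes most like 3 of the members across the 9 mice were found by the root mean square difference of log2 CPM, each gene centred on its own mean. Over 13563 other genes, *C3* was nearest to *Selenon* and *Rerg* (0.137 and 0.139), *C4b* to *Setbp1* and *Armcx4* (0.0822 and 0.15), and *C3ar1* to *Tnc* and *Ccr2* (0.168 and 0.211). Among the other members, *C1ra* was the 13th, *Serping1* the 23rd, *C2* the 197th and *C4b* the 1094th nearest gene to *C3*. *C1s1* was the 3551st, *Cd55*, which also fell, the 4625th, *Cfb* the 5436th and *C3ar1* the 10257th. The measure spans both groups, so it takes in the difference between them as well as the spread within them.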

How the data were processed

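Skin RNA of 9 mice was sequenced. The authors aligned reads to mm10 with Bowtie2 2.3.4.3 and made estimated counts with RSEM 1.3.1, which they deposited without normalization and of which 9% are not whole; they also deposited TPM for 6 of the 9 mice, used here only for levels between genes. Strand and annotation release are not given in the sources used here. Gene identifiers were paired with RefSeq GRCm38.p6 (17519 by number, 331 by symbol, 93 unmatched), and coordinates are from GENCODE M21 (GRCm38).

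Counts were rounded. Genes under 10 counts in sum were left out, and edgeR 4.0.16 (R 4.3.3) compared the groups with TMM factors and its quasi-likelihood test. The factors were 1.2 to 1.31 in the controls and 0.674 to 0.91 in the *Supt6*-KO mice, without overlap, so the scaling itself differed between the groups. The standard error is the log2 fold change divided by the root of F. CPM received 0.5 before logs. Alternatives were DESeq2 1.42.0, other scaling and filters, a length correction (lowess, 17853 genes with a length), copies summed, a replicate block and each mouse left out. Tests were tried on simulated data. Python 3.11.15, pandas 2.3.3 and scipy 1.17.1 made the tables.

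Members, gene lists and tests were chosen with earlier results of these data known. Named were the 9 members, *Supt6*, complement genes of at least 1 CPM in either group, the inducers, the most abundant marker of each list and the 2 nearest genes of *C3*, *C4b* and *C3ar1*; *Hc*, *C7*, *C8b*, *Fcgr1*, *Mrc1*, *Csf1r*, *Mpo*, *Pdgfra*, *Dcn*, *Dpt*, *Fbn1*, *Kdr*, *Tek*, *Krt5*, *Cxcr2*, *Cma1*, *Cnmd*, *Apoa1*, *Alb* and the close copies were named after their values were seen. A few genes that this rule names are not reported here. The labels do not say that mice of a group are littermates or otherwise paired.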

Additional observations from a re-analysis of the deposited data

Results flagged for a closer look

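Of 86 groups of 4 or 5 mice examined (named complement genes, *Supt6* and marker sums), 6 held 1 mouse far from the rest of its group, where chance gives about 4.3. Control 5 had 3.67 CPM of *C3ar1* (group median 1.63) and 8.89 CPM of *Itgam* (median 4.41). *Supt6*-KO mouse 2 had 46.8 CPM of *C1qb* (median 63.9) and 96.0 summed CPM of mast cell markers (median 131). *Supt6*-KO mouse 4 had 94.5 CPM of *Cr1l* (median 115) and 19714 summed CPM of suprabasal keratinocyte markers (median 38696).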

How the results depend on the processing

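With library totals 2771 genes rose, 0 of the 9 members rose, 4 other complement genes rose, *C3ar1* had a log2 fold change of 0.48, and *Cfb* (-0.46) and *C1s1* (-0.67) changed sign. *C1s1* was at -0.02 with upper-quartile factors. *C3* lost its call with the length correction (-0.37). With at least 10 counts in every mouse, 18 other complement genes were tested and 4 fell. With each mouse left out in turn, 6 members fell and 1 rose every time; log2 fold changes were -1.05 to -0.73 for *C3*, -1.68 to -1.27 for *C4b*, 1.00 to 1.55 for *C3ar1* and -0.08 to 0.22 for *C1s1*. Without control 5, the highest control for 8 of the 9 genes, these counts were the same. *C2*, *C4b*, *C1ra*, *Serping1*, *Cd55* and *Supt6* kept direction and call in all 19 alternatives run. The deviations of mice with the same number correlated by 0.013 to 0.258 (mean 0.15 over 4 pairs) and those of mice with other numbers by -0.248 to 0.3 (mean -0.032 over 16 pairs). With only 4 same-number pairs, these correlations cannot decide if the mice were paired. The labels name no shared source, so the numbers were not taken to pair the mice. With the replicate block, 5251 genes rose and 5800 fell, *C3* was at -0.71, *Serping1* at -0.53 and *C3ar1* at 1.53, and 6 members fell and 1 rose. Low counts limit *C3ar1*, the terminal components, *Cpn1*, *Mpo* and *Ly6g*.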
